A study of Mus musculus with 4 samples.

Results

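The genes described here are 8 Krüppel-like transcription factors (Klf2, Klf3, Klf4, Klf6, Klf7, Klf9, Klf10 and Klf13) and the mechanosensitive channel gene Piezo1. They were chosen by gene symbol, and all 9 are among the 17915 genes of the deposited table. Bulk RNA sequencing compared endothelial cells sorted from mouse lung in which the alpha smooth muscle actin locus had been active at some time (tdTomato+) with those that carried the ZsGreen mark (ZsGreen+). There were 2 libraries per group, each labelled a biological replicate. All 4 shared the genotype Cdh5-CreER;aSMA-LSL-Dre;NR1, 5 tamoxifen doses and 6 weeks of transverse aortic constriction, a banding of the aorta that loads the left heart. The CreER transgene is driven by the endothelial Cdh5 promoter, and Dre, another recombinase, depends on the actin locus. The labels give no age and do not say whether the libraries came from separate or pooled mice, and mice without surgery were not analysed here. The p-values therefore measure only the spread between these libraries.

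Klf2 and Klf4 are the factors through which steady laminar shear stress acts on endothelial cells. Flow opens Piezo1 and engages junctional receptors, the kinases MEKK3, MEK5 and ERK5 then activate MEF2 factors, and these switch on Klf2 and Klf4. Both factors are known to raise nitric oxide synthase and thrombomodulin and to hold back adhesion molecules such as Vcam1. All KLF proteins bind CACCC and GC-rich DNA through zinc fingers at their carboxyl end. They differ at the other end, where some recruit activators and others the corepressors CtBP (Klf3) or SIN3A (Klf9, Klf10 and Klf13).

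Total counts were 17050673 to 18574737 per library, and the lowest count of these genes in a library was 1509. Little RNA was amplified before sequencing, so counts do not give the number of molecules sampled. Acta2, the gene behind the recorder, gave 303.9 and 527.5 CPM in the tdTomato+ pair of libraries, above the 87.6 and 82.9 CPM of the ZsGreen+ pair. CPM are counts per library size scaled by trimmed mean of M-values (TMM). The 10 endothelial markers were read in every library, with a summed level of 9565 to 9710 CPM in tdTomato+ and 10799 to 12560 CPM in ZsGreen+ cells. General capillary markers summed to 8240 to 8417 against 8430 to 9614 CPM, aerocyte markers to 540.0 to 598.4 against 833.7 to 900.1 CPM, and lymphatic markers to 713.3 to 1005 against 941.7 to 1231 CPM. The sums hide larger differences of single markers. The median log2 fold change, tdTomato+ over ZsGreen+, was -0.414, -1.015 and -2.026 for these 3 lists. The most abundant marker of each, Plvap, Kdr and Lyve1, had -0.017, -0.37 and 0.42. Markers of other cells were present too. Their sums in tdTomato+ against ZsGreen+ libraries were 2192 to 4260 against 547.0 to 2452 CPM for 8 macrophage and monocyte genes. For 8 fibroblast genes they were 232.8 to 432.8 against 94.5 to 118.3 CPM, and for 8 smooth muscle and pericyte genes 1363 to 1832 against 927.8 to 1329 CPM. Most of the smooth muscle and pericyte sum was Tagln, at 1336 and 1787 against 1300 and 893.8 CPM. For 8 alveolar epithelial genes the sums were 383.5 to 464.0 against 142.4 to 255.0 CPM, for 6 neutrophil genes 44.7 to 48.5 against 17.4 to 33.5 CPM, and for 5 lymphocyte genes 6.35 to 16.6 against 2.96 to 15.0 CPM. No marker of these lists was at 0 in all libraries. The median log2 fold change was 1.12 for macrophage and monocyte, 1.32 for fibroblast and 0.57 for smooth muscle and pericyte genes. It was 0.99 for alveolar epithelial, 0.92 for neutrophil and 0.10 for lymphocyte genes. All 8 macrophage and monocyte genes were above 0. Lyz2 made up most of their sums, at 3953 and 1969 against 2269 and 469.1 CPM. Macrophages and fibroblasts are known to express several KLF genes, and their part in the values that follow was not tested. In bulk libraries fewer cells that express a gene and less RNA per cell cannot be told apart.

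None of the 9 genes differed between the groups by edgeR's quasi-likelihood test. The count was 0 of 9 at an adjusted p under 0.05, 0 of 9 at an unadjusted p under 0.05, and 0 of 9 by DESeq2, by limma-voom and under each of the other alternatives tried. Over all 13177 genes tested, edgeR called 0.304%, and 8.77% had an unadjusted p under 0.05, so a count of 0 among 9 lies near the background for the first rule. In CPM no gene of the 9 had both libraries of a group above both of the other, a pattern that 38.1% of all genes showed (19.9% higher and 18.2% lower in tdTomato+ cells). The log2 fold changes, tdTomato+ over ZsGreen+, ran from -0.18 to 0.07 with a median of -0.05, and the median over all genes was -0.01. The median absolute log2 fold change was 0.065 for the 9 genes and 0.22 for all genes. The 95% interval of each of the 9 lay inside a 2-fold change either way, as it did for 58.7% of all genes. These intervals bound what could have been missed: the widest was that of Klf10 and the narrowest that of Piezo1.

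**Figure D1:**
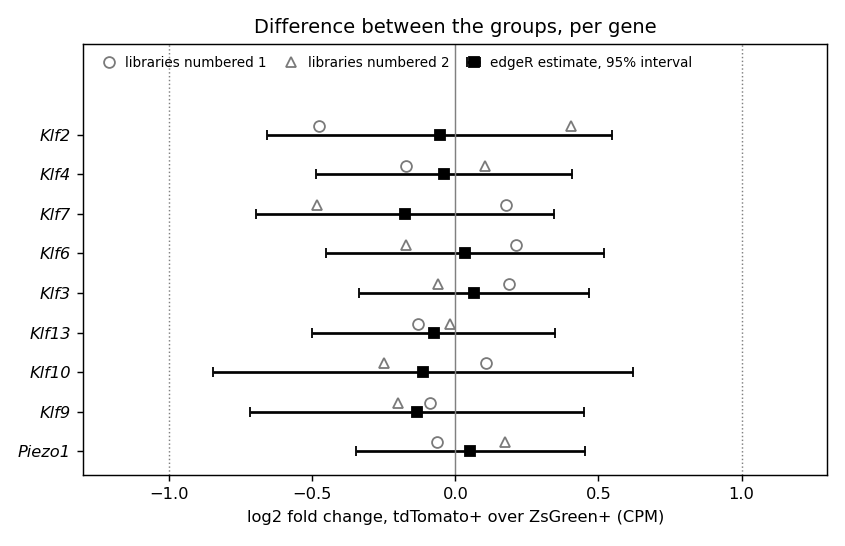
Log2 fold change of each gene, tdTomato+ over ZsGreen+ cells, as edgeR's estimate with its 95% interval (squares and bars) and as the log2 CPM difference between libraries that carry the same replicate number (open symbols). Dotted lines mark a 2-fold change. Every interval includes 0, and for Klf2 the differences of the libraries numbered 1 and 2 were -0.48 and 0.41.

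Piezo1 encodes the channel that opens when flow or pressure stretches the membrane. It spans 122481698 to 122551329 on chromosome 8 of GRCm38. Its level was 42.8 and 45.2 TPM (a level scaled by transcript length and library) in tdTomato+ cells and 36.5 and 40.0 TPM in ZsGreen+ cells. In TPM the tdTomato+ libraries were thus both above the ZsGreen+ libraries. In CPM the order was lost, with 153.6 and 162.3 CPM against 160.7 and 144.0 CPM. The log2 fold change in CPM was 0.05 (SE 0.17, edgeR adjusted p = 0.973), and the interval ran from a ratio of 0.786 to one of 1.37. The median log2 difference in TPM over all genes was 0.12 toward tdTomato+ cells, so a TPM difference is to be read against that shift. On the log2(TPM + 1) scale limma gave 0.20 for Piezo1. In TPM 27.7% of the 11978 genes kept both tdTomato+ libraries on top and 8.29% both ZsGreen+ libraries. Ctu2, a protein-coding gene of the table, overlaps one end of Piezo1 on the opposite strand, and reads in that overlap cannot be told apart without strand.

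Other genes that sense or relay flow were described from a list of 17 genes, all tested. None passed edgeR's test over all genes, 1 in each direction had an unadjusted p under 0.05, and the list's median log2 fold change was -0.02. The stretch-gated relative Piezo2 was low, at 5.29 to 7.42 TPM over the 4 libraries, with a log2 fold change of -0.17 (named after its value was seen). Flt4, the receptor for VEGF-C, gave 163.6 and 127.7 CPM in tdTomato+ cells, below the 318.7 and 281.4 CPM of ZsGreen+ cells. Flt4 is also a lymphatic marker. Of the 7 lymphatic markers tested 1, Lyve1, had a positive log2 fold change (0.42) and 6 had a negative one. Of these 6, 3 were called, and 0.137% of all genes were called lower. The cation channel gene Trpv4 went the other way, with 24.5 and 48.5 CPM against 14.3 and 23.3 CPM. By edgeR, Flt4 had a log2 fold change of -1.04 (SE 0.20, adjusted p = 0.144) and Trpv4 by one of 0.96 (SE 0.38, adjusted p = 0.538), both short of the threshold, while DESeq2 called Flt4 (adjusted p = 0.000318). The ATP-gated channel gene P2rx4 had a log2 fold change of -0.39, and Gnaq, the G protein subunit downstream of Piezo1, one of 0.44.

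The kinase cascade between sensor and Klf2 also gave no call. Of 14 genes of the MEKK3, MEK5, ERK5 and MEF2 axis and of the cerebral cavernous malformation (CCM) complex, which restrains MEKK3, 13 were tested. None had an unadjusted p under 0.05, and the median log2 fold change was 0.02. Heg1, the receptor that anchors the CCM complex, had the smallest p of the list. Its tdTomato+ libraries gave 729.7 and 813.6 CPM, both above 621.1 and 531.9 CPM in ZsGreen+ cells, a log2 fold change of 0.42 (edgeR SE 0.20, adjusted p = 0.628). Map3k2, the MEKK2 kinase, was low, with a mean of 8.20 CPM and a log2 fold change of 0.47 (SE 0.36). Mef2d had a log2 fold change of 0.21 and Pdcd10, a CCM protein, one of -0.25. Mapk7, which encodes ERK5 (named after seeing its value), was even across libraries, at 69.6 and 67.6 against 72.8 and 68.3 CPM.

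Klf2 was the most abundant of the 9 genes by a wide margin. It read 887.2 and 1043 TPM in tdTomato+ cells and 992.2 and 790.0 TPM in ZsGreen+ cells, which placed its mean above 98.9% of the genes in the table. Its share of the summed TPM of the 8 KLF genes was 51.8% and 58.6% in tdTomato+ and 60.4% and 49.2% in ZsGreen+ libraries. The groups overlapped, since the highest and the lowest library were both outside the tdTomato+ pair in CPM: 887.8 and 1099 CPM against 1234 and 830.0 CPM. By edgeR the log2 fold change of Klf2 was -0.05, with an SE of 0.25 and an adjusted p of 0.979. The interval ran from a ratio of 0.634 to one of 1.46. The ZsGreen+ libraries differed from each other by 1.49-fold and the tdTomato+ libraries by 1.24-fold, and replicate 1 was the higher library in one group and replicate 2 in the other.

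Klf2 spans 72319062 to 72321654 on chromosome 8 of GRCm38. The 250 bases before its start are shown because they hold the match to the MEF2 motif, the last step of the cascade above. They are chr8:72318812-72319061, plus strand, from RefSeq GRCm38.p6. Capitals mark, in order, the GC boxes GGGCGG at positions -214 and -195 from the start site, the MEF2 match at -118 and a CACCC box at -19, which is on the minus strand and so reads GGGTG here.
Klf2: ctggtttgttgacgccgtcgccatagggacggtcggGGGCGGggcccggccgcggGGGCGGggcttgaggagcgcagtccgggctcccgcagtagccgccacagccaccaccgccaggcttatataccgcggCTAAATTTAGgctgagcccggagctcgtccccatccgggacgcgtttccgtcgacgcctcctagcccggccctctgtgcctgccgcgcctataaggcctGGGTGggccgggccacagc
Both strands were searched from 250 bases before to 50 after the start, and 8 of the 9 genes, all but Klf10, matched the RefSeq promoter table. A MEF2 motif lay in 1 of the 8, that of Klf2, and in 3.16% of all 32544 promoters. CACCC was in 6 of 8 and in 57.7% of all promoters, and GGGCGG, whose matches can share a base with those of CACCC, was in 7 of 8 and in 35.9%. The E-box CACGTG was in 2 of 8, those of Klf4 and Klf6, and in 7.17% of all. The core of the cyclic AMP response element, TGACG, was found in 5 of 8 and in 20.9% of all promoters. Only Piezo1 among these promoters held the TATA box TATAAA, which 13.6% of all promoters held. The AP-1 site TGACTCA was found in none of the 8 and in 5.19% of all promoters. The same was so for the whole cyclic AMP response element TGACGTCA, which contains its core and was found in 1.8% of all promoters. Neither the TEAD site GGAATG (14.6% of all promoters) nor the CArG box of SRF (1.64%) was found in these windows. The 8 promoters held 58.3% to 76.7% G and C, against a median of 53% over all promoters. Such matches describe letters and not binding.

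Klf4, which shares many targets with Klf2, had in TPM the smallest ratio of highest to lowest library among the 9 genes, 1.10. It gave 192.0 and 186.6 TPM in tdTomato+ cells and 174.8 and 174.2 TPM in ZsGreen+ cells. In TPM, as for Piezo1, both tdTomato+ libraries were above both ZsGreen+ libraries. In CPM the values were 337.0 and 344.4 against 379.8 and 320.7, and the groups overlapped. The log2 fold change was -0.04 in CPM (SE 0.19, edgeR adjusted p = 0.979) and 0.12 on the log2(TPM + 1) scale by limma, near the shift of all genes. The interval in CPM ran from a ratio of 0.713 to one of 1.33. The ratio of Klf4 to Klf2 in TPM was 0.216 and 0.179 in tdTomato+ and 0.176 and 0.221 in ZsGreen+ libraries, so each group held a higher and a lower value.

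Klf4 lies on chromosome 4 at 55527137 to 55532475 of GRCm38, minus strand. The 250 bases before its start (chr4:55532476-55532725, minus strand, RefSeq GRCm38.p6) are shown beside those of Klf2 for the difference in motifs. Capitals mark GC boxes, of which the first 3 are on the minus strand and read CCGCCC, and the E-box CACGTG at -182.
Klf4: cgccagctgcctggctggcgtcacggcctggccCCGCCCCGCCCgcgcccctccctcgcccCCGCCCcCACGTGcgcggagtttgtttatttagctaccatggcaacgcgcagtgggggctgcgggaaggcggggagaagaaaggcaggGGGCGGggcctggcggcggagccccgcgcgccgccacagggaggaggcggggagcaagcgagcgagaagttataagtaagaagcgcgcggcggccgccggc
The longest stretch the Klf2 and Klf4 coding sequences share lies near the end of both, where the zinc fingers are encoded. In 90 bases around it 73 bases (81.1%) were identical. They are coding positions 950 to 1039 of Klf2 and 1337 to 1426 of Klf4 in GENCODE M21, with identical bases in capitals, and they show how far reads of the 2 genes can be told apart.
Klf2: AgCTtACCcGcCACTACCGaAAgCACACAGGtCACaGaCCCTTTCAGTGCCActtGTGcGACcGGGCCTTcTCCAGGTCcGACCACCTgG
Klf4: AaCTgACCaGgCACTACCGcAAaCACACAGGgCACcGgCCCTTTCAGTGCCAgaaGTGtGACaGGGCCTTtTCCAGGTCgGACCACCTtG
Their longest identical run was 14 bases. Over all 28 pairs of the 8 KLF coding sequences the longest identical run was between 9 and 26 bases, the latter in Klf6 and Klf7. The deposited counts were whole numbers in all 4 libraries for 7 of the 9 genes, and not for Klf3 and Piezo1.

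Klf6 and Klf7, 2 closely related activators, came next in abundance. Klf6 (chromosome 13, 5861489 to 5870393), known for its rise after vascular injury, read 174.9 and 128.0 TPM in tdTomato+ and 122.1 and 144.5 TPM in ZsGreen+ cells. Klf7 read 149.4 and 135.1 TPM against 108.4 and 184.0 TPM, so that its highest and its lowest library were both ZsGreen+. The log2 fold changes were 0.03 (SE 0.20) for Klf6 and -0.18 (SE 0.22, edgeR adjusted p = 0.903) for Klf7, the smallest p of the 9 genes. The intervals ran from 0.731 to 1.43 for Klf6 and from 0.617 to 1.27 for Klf7 as ratios. The deposited table lists Klf7 on the plus strand of chromosome 1 (64029448 to 64122345), while GENCODE M21 has it on the minus strand with the noncoding genes Gm26649 and Gm13748 opposite to it. Reads of these genes and Klf7 cannot be told apart without strand.

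Klf3, a repressor that works through CtBP and is listed on chromosome 5 at 64803316 to 64832641, read 119.5 and 103.2 TPM against 86.9 and 106.5 TPM, with overlapping groups. Its log2 fold change was 0.07 (SE 0.17), and the ratio's interval ran from 0.792 to 1.38. The 12 genes of KLF cofactors and turnover were likewise without a call and without an unadjusted p under 0.05, at a median of -0.07. Ctbp1, a gene of the CtBP corepressor, had the smallest p of the list: both tdTomato+ libraries (306.0 and 325.0 CPM) lay below both ZsGreen+ libraries (408.1 and 370.0 CPM). By edgeR the adjusted p was 0.765 at a log2 fold change of -0.30 (SE 0.18). The ubiquitin ligase Wwp1 had a log2 fold change of 0.30, the deacetylase Hdac2 one of -0.20 and the acetyltransferase Ep300 one of 0.25.

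**Figure D2:**
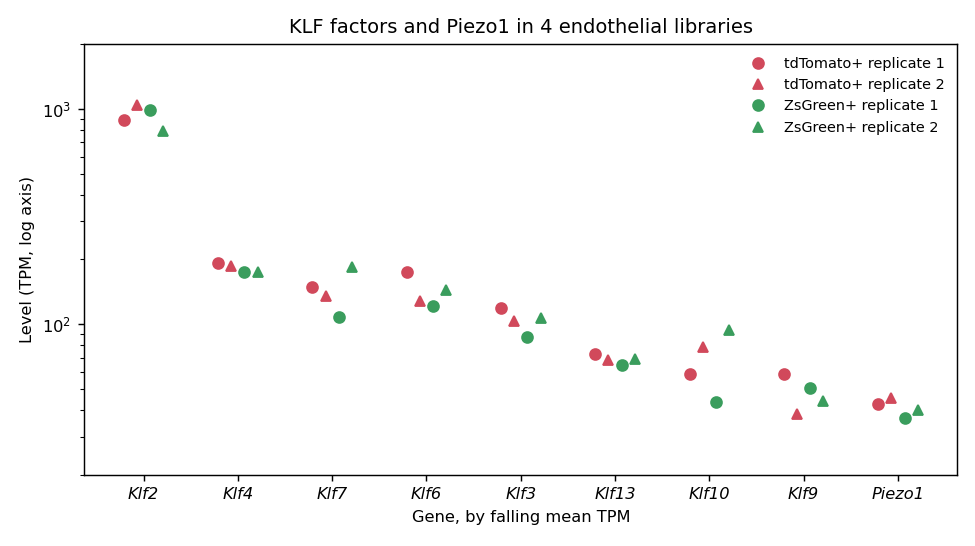
Level of each gene in TPM on a log axis, with the tdTomato+ libraries in red, the ZsGreen+ libraries in green, circles for replicate 1 and triangles for replicate 2. Klf2 stands apart at 790.0 to 1043 TPM, and the spread within a group is widest for Klf10 in ZsGreen+ cells.

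Klf13, Klf10 and Klf9, the SIN3A-binding repressors, were lower. In GRCm38 they lie at 63886351 to 63938915 on chromosome 7, 38291464 to 38300711 on chromosome 15 and 23141226 to 23168129 on chromosome 19, and Klf13 overlaps the coding gene E030018B13Rik on the opposite strand. Klf13 read 72.9 and 68.3 TPM against 64.6 and 69.3 TPM and had a log2 fold change of -0.08 in CPM (SE 0.18). Its CPM values, 278.0 and 273.4 against 304.1 and 276.9, overlapped by 1 library. Klf10, induced early by TGF-beta, read 58.5 and 78.7 TPM against 43.7 and 93.7 TPM, and Klf9, induced by glucocorticoids and thyroid hormone, 58.5 and 38.2 TPM against 50.4 and 44.0 TPM. The log2 fold changes were -0.11 (SE 0.31) for Klf10 and -0.13 (SE 0.25) for Klf9, with intervals as ratios from 0.556 to 1.54 and from 0.609 to 1.36. Ranked by mean TPM over the 4 libraries the order was Klf2, Klf4, Klf7, Klf6, Klf3, Klf13, Klf10, Klf9 and Piezo1. The libraries' ranges overlapped between neighbours in that order except between Klf2 and Klf4, Klf6 and Klf3, and Klf3 and Klf13. In all 4 libraries Klf6 was above Klf3.

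In log2 CPM the larger of the 2 gaps within a group exceeded the difference between the groups for each of the 9 genes, and for Klf10 and Klf9 these gaps were wide. Klf10 was higher in replicate 2 of both groups, 1.41-fold in tdTomato+ and 1.81-fold in ZsGreen+ cells by CPM. Klf9 was higher in replicate 1 of both, 1.46-fold and 1.35-fold. Over all genes 29% were higher in replicate 1 of both groups and 27.9% in replicate 2 of both, so such a pattern is common here, and the labels do not say that equal numbers mark a shared mouse or day. Klf11, the closest relative of Klf10 (named after seeing its value), was likewise low in replicate 1 and high in replicate 2, at 27.9 and 54.2 CPM in tdTomato+ and 20.4 and 56.9 CPM in ZsGreen+ cells.

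Klf9 and Klf10 are known outputs of the circadian clock, and a clock list of 16 genes, added after the values were seen, was set beside them. Nr1d1, the clock repressor REV-ERB alpha, gave 6.27 CPM in replicate 1 of tdTomato+ cells and 123.2 CPM in replicate 2, with 4.05 and 93.4 CPM for ZsGreen+. Dbp, a clock-driven transcription factor, read 1.16 and 26.1 CPM, then 0.696 and 19.6 CPM. Arntl, the activator BMAL1, went the other way, with 36.3 and 11.3 CPM, then 37.4 and 15.1 CPM, and so did Per1. In all, 10 of the 16 clock genes were higher in replicate 2 of both groups (27.9% of all genes). In replicate 1 of both 4 were higher (29% of all genes), and none of the 16 was called between the groups. Klf10 had the order of the first set, and Klf9, like Klf13, that of the second. Any gene higher in the same-numbered library of both groups matches one of these sets, so the match tells nothing of the clock. Whether the clock has a part in the spread of Klf9 and Klf10 was not tested.

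Immediate early genes, which rise within minutes of handling or of tissue dissociation, are a further set that Klf2, Klf4, Klf6 and Klf10 are known to join. Of 22 such genes 20 were higher in replicate 1 of both groups (29% of all genes) and none in replicate 2 of both (27.9%). Their summed level was 21560 and 15835 CPM in tdTomato+ and 23836 and 13276 CPM in ZsGreen+ libraries. Klf2, Klf4 and Klf6 did not go one way by number: Klf2 and Klf4 were higher in replicate 2 of tdTomato+ and in replicate 1 of ZsGreen+ cells, and Klf6 the reverse. Klf10 was higher in replicate 2 of both groups, the order that none of the 22 genes had. Between the groups the immediate early list had no call and a median log2 fold change of 0.04. Its members with the smallest p were Egr3 (0.72, SE 0.25), the heat shock gene Hspa1b (-0.94, SE 0.37), Egr2 (0.71, SE 0.38) and Fosl2 (0.39, SE 0.21). Their edgeR adjusted p ran from 0.444 to 0.724. Egr2 had 1.33 without ZsGreen+ replicate 1 and 0.28 without ZsGreen+ replicate 2, uncalled in both.

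**Figure D3:**
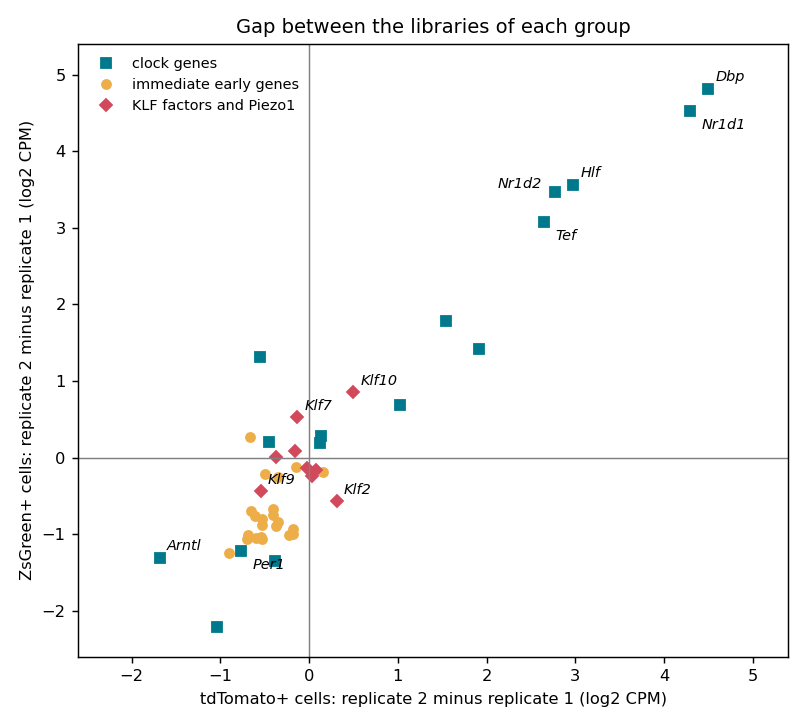
For each gene, the log2 CPM of replicate 2 minus replicate 1 in tdTomato+ cells (horizontal) and in ZsGreen+ cells (vertical), for the KLF factors and Piezo1, 22 immediate early genes and 16 clock genes. Klf10 lies up and right of the origin and Klf9 down and left of it, while Klf2 lies in a quadrant where the 2 groups disagree.

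Lists tied to the regulators of Klf9 and Klf10 gave no call. Among 9 glucocorticoid-induced genes the median log2 fold change was 0.13. Fkbp5, a chaperone of the glucocorticoid receptor, read 121.4 and 108.6 CPM for tdTomato+ and 84.9 and 61.0 CPM for ZsGreen+, without overlap. Its log2 fold change of 0.66 had an edgeR adjusted p of 0.387 (SE 0.21). The metallothioneins Mt1 and Mt2 had log2 fold changes of 0.86 (SE 0.38) and 0.48 (SE 0.39), and Pdk4, a kinase of glucose oxidation, one of 0.70 (SE 0.39). Among 8 early TGF-beta response genes the median was 0.37, and 2 had an unadjusted p under 0.05, beside 8.77% of all genes. Ccn2, a matricellular protein, read 744.3 and 718.3 CPM for tdTomato+ and 414.6 and 393.3 CPM for ZsGreen+. Its log2 fold change of 0.86 had an edgeR adjusted p of 0.174 (SE 0.18). Tgfbi had a log2 fold change of 1.20 (SE 0.40), Ltbp2 one of 0.76 and Tgif1 one of 0.49. DESeq2 called Ccn2 (adjusted p = 0.000377). Without ZsGreen+ replicate 1 edgeR called Mt1 (log2 fold change 1.63, adjusted p = 0.0127) and Tgfbi (1.91, adjusted p = 0.0323), and without ZsGreen+ replicate 2 they had 0.36 and 0.72, uncalled. The fibroblast, smooth muscle and pericyte (mostly Tagln), alveolar epithelial and neutrophil marker sums given above were higher in both tdTomato+ libraries as well. Those of macrophages and lymphocytes overlapped, though all 8 macrophage and monocyte genes had a log2 fold change above 0. The part of all these cells in these values was not tested.

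Genes that laminar flow is known to induce or repress were more spread than Klf2 and Klf4 themselves. These genes were listed for their response to flow. Nos3, Thbd and Vcam1 among them are also known to respond to Klf2 and Klf4, as described above. Of 13 genes known to be induced by laminar flow none was called, and the median log2 fold change was 0.43. At an unadjusted p under 0.05, 4 were higher and 1 was lower in tdTomato+ cells, beside 8.77% of all genes in either direction. Nos3, endothelial nitric oxide synthase, read 200.5 and 322.4 CPM for tdTomato+, above 107.4 and 137.7 CPM for ZsGreen+. Its log2 fold change of 1.09 had an edgeR adjusted p of 0.231 (SE 0.27). Ptgis, prostacyclin synthase, showed the same order, with 94.5 and 135.5 CPM above 58.3 and 66.0 CPM and an edgeR adjusted p of 0.233 at a log2 fold change of 0.89 (SE 0.22). The cytochrome P450 genes Cyp1b1 and Cyp1a1 were lower than these. Cyp1b1 read 12.3 and 9.56 against 1.77 and 1.70 CPM, and Cyp1a1 34.3 and 13.4 against 9.55 and 5.70 CPM. Their log2 fold changes were 2.65 (SE 0.38, edgeR adjusted p = 0.0606) and 1.65 (SE 0.49, edgeR adjusted p = 0.335). DESeq2 called Nos3, Ptgis, Cyp1b1 and Cyp1a1 (adjusted p from 3.77e-06 to 0.0444). Cyp1b1 was called by edgeR without ZsGreen+ replicate 1 (adjusted p = 0.0342) and without a filter on low counts (0.0133), and Cyp1a1 ran from 0.82 without tdTomato+ replicate 1 to 2.20 without tdTomato+ replicate 2. Thbd, thrombomodulin (named after seeing its value), had the opposite order, with 558.7 and 517.5 CPM below 697.6 and 791.5 CPM. By edgeR its log2 fold change was -0.47 with an SE of 0.19 and an adjusted p of 0.544. Nos3 and Thbd had log2 fold changes of opposite sign, neither was called in this edgeR fit, and their relation to Klf2 was not tested.

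Of 10 genes that laminar flow is known to repress 1 was called, Vcam1, an adhesion molecule for leukocytes. It rose to 294.1 and 275.7 CPM in tdTomato+ cells, from 83.2 and 58.8 CPM for ZsGreen+, with an edgeR adjusted p of 0.0304 at a log2 fold change of 2.00 (SE 0.22). The call ended when tdTomato+ replicate 1 (edgeR adjusted p = 0.0761) or tdTomato+ replicate 2 (0.126) was left out, and with limma on unfiltered log2(TPM + 1) (adjusted p = 0.142). The list's median log2 fold change was 0.43, 7 of 10 values were above 0 and 3 had an unadjusted p under 0.05. Over all genes 0.304% were called and 8.77% had such an unadjusted p. Sele, E-selectin, read 577.4 and 471.3 CPM for tdTomato+ and 210.8 and 150.5 CPM for ZsGreen+, again without overlap. Its log2 fold change of 1.54 (SE 0.24) had an edgeR adjusted p of 0.0832. Bmp4, a growth factor raised by disturbed flow, had a log2 fold change of 1.13 (SE 0.22, edgeR adjusted p = 0.144) and the chemokine Ccl2 one of 0.51 (SE 0.29). DESeq2 called Sele and Bmp4, and edgeR did so without ZsGreen+ replicate 1 (adjusted p = 0.0144 and 0.0183). Sele was called without a filter on low counts and with both filtered TPM settings too. The marker sums of endothelial, aerocyte, fibroblast, alveolar epithelial and neutrophil genes also separated the pairs of libraries. So did those of smooth muscle and pericyte genes, mostly Tagln. General capillary sums did so narrowly, with at most 8417 against at least 8430 CPM. Those of lymphatic, macrophage and lymphocyte genes overlapped. Even so, 6 of 7 lymphatic genes had a negative and all 8 macrophage and monocyte genes a positive log2 fold change. The part of all these cells in these values was not tested. Whether the flow-induced and flow-repressed genes differ from Klf2 and Klf4 in their response was not tested either.

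**Figure D4:**
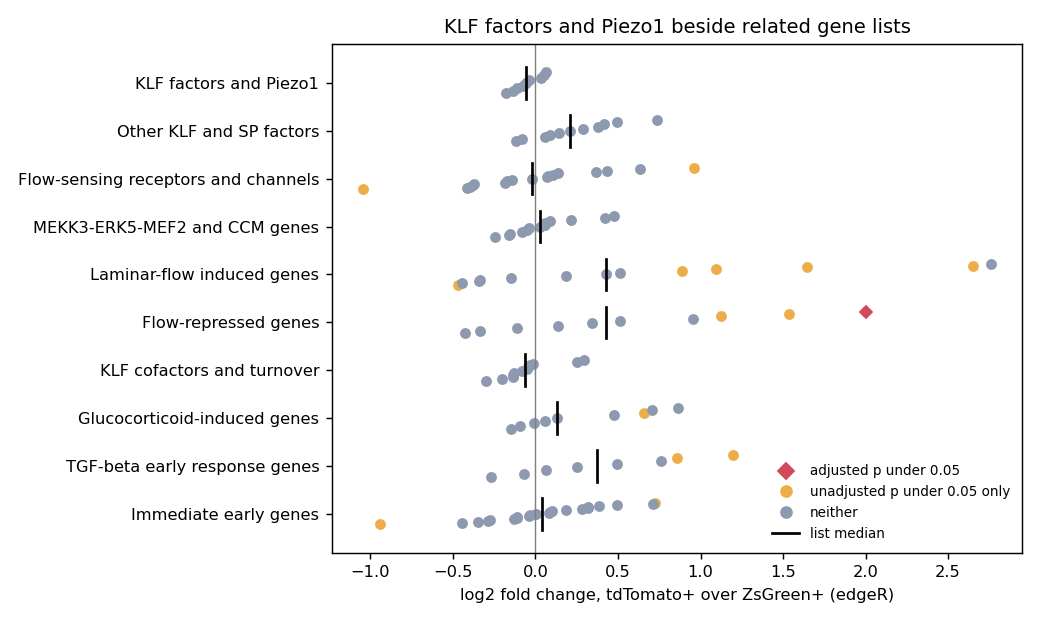
Log2 fold change, tdTomato+ over ZsGreen+ cells, of each tested gene in the group of 9 and in 9 related lists, with list medians as black bars. The 9 genes lie between -0.18 and 0.07, and the flow-induced and flow-repressed lists both have a median of 0.43, with Vcam1 as the single gene past the adjusted threshold.

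Among 18 other KLF and SP factors 15 were in the rows analysed here and 11 were tested. None was called or had an unadjusted p under 0.05, and the median was 0.21. These genes lay far below Klf2. The highest single value was 44.6 TPM, of Klf16, and Klf5, a factor of activated smooth muscle (named after seeing its value), was between 0.16 and 1.16 TPM. Klf16 had a log2 fold change of 0.14 (SE 0.23), Sp3 one of 0.21 (SE 0.29) and Sp4 one of 0.29 (SE 0.34). Klf8, which reached 2.21 CPM at most, had one of 0.74 (SE 0.86). Klf1, the erythroid factor, had 0 to 6 counts per library.

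The genes whose pattern over the 4 libraries was nearest to that of Klf2 were Pemt, Zfp316 and S100a6, with a root mean square distance in centred log2 CPM of 0.019 to 0.022. For Klf4 they were Pigq, Nono and Noc4l (0.0073 to 0.0092) and for Piezo1 Tmem150a, Ehmt2 and Spg21 (0.0098 to 0.011). With only 4 libraries many genes share a similar pattern. Of 10360 genes averaging 5 CPM or more, 205 were within 0.1 of Klf2, 1405 of Klf4 and 1075 of Piezo1. That cutoff is wider than the distances of the named genes.

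**Figure D5:**
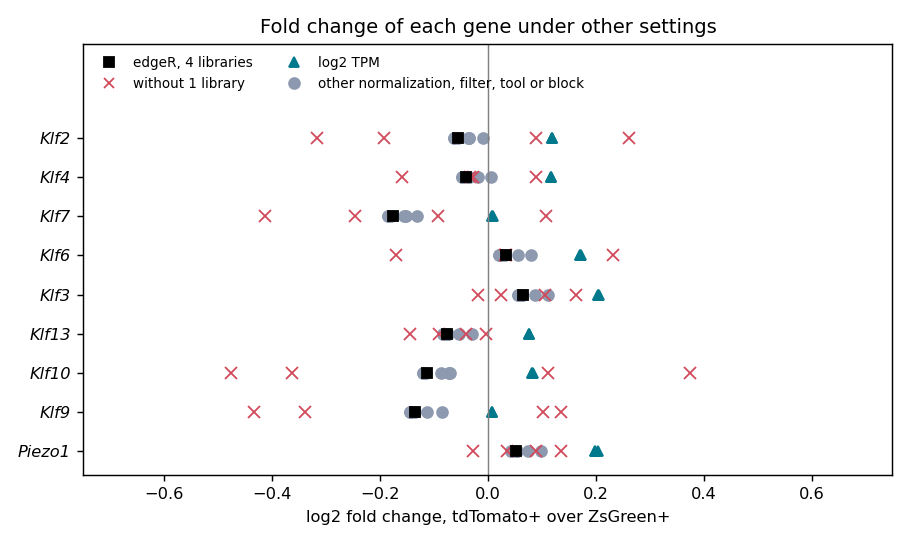
Log2 fold change of each gene under each setting tried: edgeR with 4 libraries (squares), without 1 library (crosses), log2 TPM (triangles) and other normalizations, filters, tools and the replicate block (circles). Values without 1 library spread widest for Klf10, from -0.48 to 0.37, and the TPM values lie to the right of the edgeR values with 4 libraries for all 9 genes.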

How the data were processed

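RNA of sorted lung endothelial cells was purified with RNeasy Micro columns, and little RNA was amplified with a Discover-sc kit for MGI sequencing, per the labels' protocols. RSEM 1.3.1 and DESeq2 1.4.5, and builds mm10 and GRCm38, are named in the submitters' processing notes, without their roles. No label or header names the aligner or says whether counting used strand. The authors deposited estimated counts, 16.2% to 17.9% of them not whole, which were rounded for tests, and TPM, used for levels between genes. The FPKM values and the normalized counts, a signal, were deposited too and not used.

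edgeR 4.0.16 (R 4.3.3) compared the groups over all genes with TMM, filterByExpr (minimum count 10, leaving 13177 genes), its two-sided quasi-likelihood test and Benjamini-Hochberg adjustment at 0.05; the SE divides the size of the log2 fold change by the root of the F statistic, and 95% intervals use the fit's degrees of freedom. With 2 against 2 libraries an exact permutation p cannot go below 0.333. The test was tested on simulated data first.

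The members and lists were chosen with earlier results of these data known. Named are the 9 genes, in each list the 4 lowest p among genes averaging 1 CPM or more, and 3 genes nearest to Klf2, Klf4 and Piezo1. Alternatives were other factors, DESeq2 1.42.0, limma 3.58.1 (voom, and trend on log2 of TPM plus 1 or 0.1 over genes at 1 TPM or more in 2 libraries), filters, leaving out each library and a replicate block. Promoters are from RefSeq GRCm38.p6 and coding sequences from GENCODE M21.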

Additional observations from a re-analysis of the deposited data

How the results depend on the processing

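No setting called any of the 9 genes; the smallest adjusted p of a member in any of 14 alternatives was 0.384. Of 126 member values 96 kept their direction and 30 did not, all uncalled. The cause of these turns was not tested. With upper quartile factors Klf4 turned to 0.0064. With log2(TPM + 1), log2(TPM + 0.1) and log2(TPM + 1) unfiltered the log2 fold changes turned positive for Klf2 (0.1193, 0.1194 and 0.1193), Klf4 (0.1168, 0.1174 and 0.1168), Klf7 (0.0082, 0.0086 and 0.0082), Klf9 (0.0081, 0.0077 and 0.0081), Klf10 (0.081, 0.084 and 0.081) and Klf13 (0.076, 0.077 and 0.076). Leaving out each library in turn, the sign of 8 of 9 members changed at least once: Klf2 ran from -0.32 to 0.26, Klf3 from -0.018 to 0.16, Klf4 from -0.16 to 0.090, Klf6 from -0.17 to 0.23, Klf7 from -0.41 to 0.11, Klf9 from -0.43 to 0.14, Klf10 from -0.48 to 0.37 and Piezo1 from -0.028 to 0.14. So did Klf8 (-0.046 to 2.68), Klf16 (-0.15 to 0.40) and Sp3 (-0.155 to 0.71). Members with groups apart numbered 1 (Klf13, lower) with RLE factors, 1 with DESeq2 and 1 without a filter on low counts, and 2 (Klf4 and Piezo1, higher) in each of the log2(TPM + 1), log2(TPM + 0.1) and unfiltered log2(TPM + 1) settings.

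Calls over all genes were 330 with DESeq2, 128 without a filter, 22 with log2(TPM + 0.1), 0 with unfiltered log2(TPM + 1) and 4 to 304 without 1 library, against 40. Calls among the 9 pathway lists were 1 in the reported fit, 9 with DESeq2, 3 without a filter, 2 with log2(TPM + 1), 2 with log2(TPM + 0.1), 0 with unfiltered log2(TPM + 1) and 0 to 7 without 1 library. With a replicate block the counts were 934 over all genes, 14 in the lists and 0 among the members; the labels do not pair the numbers, and deviations of equal numbers correlated at 0.45 over genes. Under the block 13 further named genes of the lists were called, namely Nos3 (adjusted p = 5.28e-05), Ptgis, Cyp1b1, Cyp1a1, Sele (2.75e-09), Bmp4, Flt4, Trpv4, Fkbp5, Mt1, Ccn2, Tgfbi and Egr2. Leaving out a library leaves a group of 1, assumed to vary like the other.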
